A study of Homo sapiens with 6 samples.

Results

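The nuclear genes of the mitochondrial respiratory chain were followed in HEK293T cells after expression of ppk1, a bacterial gene for polyphosphate kinase. They were picked by a rule on symbols, with earlier results of these data known. The rule took the NDUFA, NDUFB, NDUFC, NDUFS and NDUFV genes with a number, SDHA to SDHD, the UQCR, COX4 to COX8 and ATP5 genes, NDUFAB1, CYC1 and CYCS. Of the 58051 genes counted, 184 matched these patterns, 96 were left out because their symbols mark pseudogenes or hold a hyphen, and 88 remained. They comprise 37 genes of complex I, 4 of complex II, 10 of complex III, 18 of complex IV, 18 under ATP5 symbols for complex V, and CYCS, the mobile electron carrier cytochrome c. NDUFA4, long counted with complex I, is placed here with complex IV. Of the 88, 3 are not regarded as subunits: ATP5S and ATP5SL, which are distantly related to one another and bear ATP synthase names, and COX7A2L, a factor that joins complexes into supercomplexes.

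HEK293T cells derive from embryonic human kidney and express the SV40 T-antigen. The control group of 3 libraries came from cells transiently transfected with the empty plasmid pcDNA3.1-, and the ppk1 group of 3 libraries from cells transfected with pcDNA3.1-ppk1+. Both groups were harvested 48 h after transfection, and the libraries lettered B, C and D are matched biological replicates of the experiment, so each letter gives 1 pair. The share of cells that took up the plasmid is not given in the sources used here, and a culture is measured as a whole, so fewer cells of a kind and less RNA per cell cannot be told apart. The RNA made from the ppk1 plasmid was not analysed here.

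The respiratory chain takes electrons from NADH at complex I and from succinate at complex II, passes them through ubiquinone, complex III and cytochrome c, and delivers them to oxygen at complex IV. Complexes I, III and IV pump protons across the inner mitochondrial membrane, and complex V, the ATP synthase, uses their return to make ATP, the substrate from which polyphosphate kinases build chains of phosphate. Complex II is wholly nuclear-encoded, whereas every other complex also holds subunits encoded by mitochondrial DNA, so its assembly draws on both genomes.

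The libraries held between 40851783 and 67122986 counts. Levels are given as CPM, counts per 1000000 of the scaled library total, and a count of 0 allows up to 3 counts, which is between 0.0447 and 0.0734 CPM depending on the library. In all, 19574 genes had enough counts to be tested, with the pair letter in the model and p-values adjusted over all of them, and a gene is said to have risen or fallen where its adjusted p was below 0.05. Of 6 genes that HEK293 cultures express, all were detected, from PAX2 at 2.55 to 3.64 CPM to VIM at 478 to 538 CPM. NEFL among them fell by 0.29 on the log2 scale (adjusted p = 0.00793, edgeR) and INA rose by 0.25 (adjusted p = 0.0295, edgeR). The others were not called. Of 12 markers of other cell types, the blood markers PTPRC, HBB and CD3E, the endothelial CDH5, the fibroblast DCN and the muscle MYH7 did not exceed 0.0979 CPM, while PECAM1, CKM and APOA1 reached 0.215, 0.196 and 0.474 CPM. ACTA1 of muscle lay between 0.677 and 1.41 CPM and COL1A1 of fibroblasts between 15.4 and 20.6 CPM, neither called. ALB of liver lay between 0.215 and 0.832 CPM and fell by 1.37 on the log2 scale (adjusted p = 0.00261, edgeR). The part of these in the results was not tested. The empty vector library D stood apart for the respiratory chain genes: it was the highest of the 3 empty vector libraries for 72 of the 82 tested, with a median of 0.27 on the log2 scale above the mean of the other libraries of its group.

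Few respiratory chain genes were called, a share near that of all genes called higher, and those called rose slightly. Of the 88 genes, 82 were tested and 4 were called (4.88%), all higher with ppk1, where 9.08% of all genes tested were called, 4.04% higher and 5.04% lower. The 4 were NDUFV1 and NDUFB2 of complex I, COX6B1 of complex IV and ATP5G1 of complex V, each with a log2 fold change of 0.25 or 0.26. The 78 uncalled genes lay mostly just above 0, with 74 positive fold changes and a median of 0.09. Over all 82, 78 fold changes were positive (95.1%, against 53.1% of all genes tested), and the median was 0.10, against 0.02 for all genes tested. At an unadjusted p below 0.05, 18 of the 82 were higher (22.0%, against 12.2% of all genes) and 0 were lower (against 11.6% of all genes). The 4 genes below 0 were NDUFS4 at -0.11, COX7A2L at -0.02, COX6A1 at -0.01 and NDUFA4, whose fold change of -0.005 was the closest to 0; none of them was called.

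The fit gave each uncalled gene a 95% interval, with standard errors that draw on the spread of all genes tested. Such an interval does not bound the spread between the 3 pairs. For NDUFS4 it ran from -0.29 to 0.06, while the pairs differed by 0.22 in B, -0.15 in C and -0.42 in D. The median standard error was 0.076 on the log2 scale. Of the 78 uncalled genes, 77 had a 95% interval that lay wholly within 0.5 log2 units of 0, and the exception was the weakly expressed COX6B2, with an interval from -0.47 to 0.52. A p that missed the threshold does not show that a gene was the same in both groups.

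**Figure D1:**
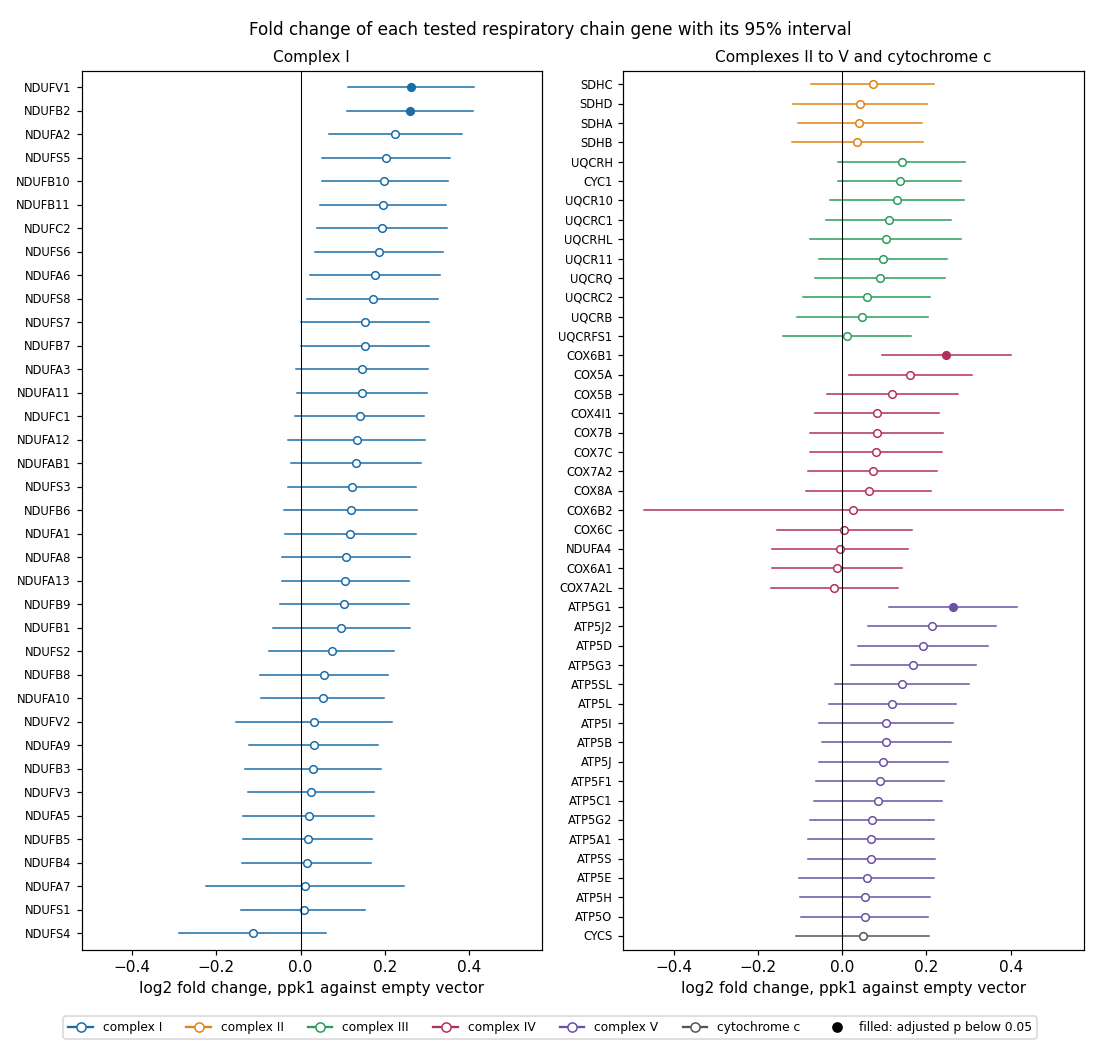
Log2 fold change (x axis, ppk1 against empty vector, 3 pairs) of the 82 tested respiratory chain genes, ordered by size within each complex, with bars for the 95% interval from the edgeR fit and filled points for adjusted p below 0.05. The points crowd between 0 and 0.26, 4 are filled, and NDUFS4 is the lowest at -0.11.

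NDUFV1 encodes the flavin-bearing core subunit of complex I that accepts electrons from NADH. Its level was 185, 184 and 160 CPM in the empty vector libraries B, C and D, and 200, 223 and 211 CPM in the ppk1 libraries. Every ppk1 library lay above every empty vector library, and the widest gap was in pair D, whose empty vector library was the lowest of the 6. NDUFV1 (ENSG00000167792, chromosome 11) rose by 0.26 on the log2 scale (SE 0.075; adjusted p = 0.0174, edgeR quasi-likelihood test with Benjamini-Hochberg adjustment), from 176 ± 13.9 to 211 ± 11.6 CPM (SD, n = 3). It shares 5.4% of its transcript with the overlapping AP003385.3, which had 10 counts over all libraries against 57278 for NDUFV1.

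NDUFB2 encodes a small accessory subunit in the membrane arm of complex I. It had 51.5, 56.9 and 62.0 CPM with the empty vector and 62.8, 69.4 and 71.6 CPM with ppk1. The groups did not overlap, although the lowest ppk1 value was barely above the highest control value, and the difference was even across the pairs, at 0.28, 0.29 and 0.21 on the log2 scale in B, C and D. The rise of NDUFB2 (ENSG00000090266, chromosome 7) was 0.26 (SE 0.075, adjusted p = 0.0191 in the same fit). An exon of ADCK2 overlaps it on the same strand, with 18049 counts over all libraries against 18284 for NDUFB2. Their annotated transcripts shared no stretch of 50 bases, and the division of reads within the short overlap is uncertain.

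ATP5G1, now named ATP5MC1, is one of 3 genes whose mature product is subunit c, the protein that forms the rotating ring of the ATP synthase. Its level was 78.5, 87.3 and 94.2 CPM with the empty vector and 99.5, 112 and 99.9 CPM with ppk1. The groups did not overlap, and the gap was narrow in pair D (0.08 on the log2 scale) and wider in B (0.34) and C (0.36). ATP5G1 (ENSG00000159199, chromosome 17) rose by 0.26 (SE 0.076, adjusted p = 0.0191 in the same fit).

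COX6B1 encodes a subunit on the intermembrane-space side of cytochrome c oxidase. It had 72.9, 74.9 and 93.6 CPM with the empty vector and 90.4, 95.7 and 98.7 CPM with ppk1. Here the groups overlapped, because the empty vector library D was above the ppk1 library B, while each pair on its own was higher with ppk1. COX6B1 (ENSG00000126267, chromosome 19) rose by 0.25 (SE 0.076, adjusted p = 0.0291 in the same fit).

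**Figure D2:**
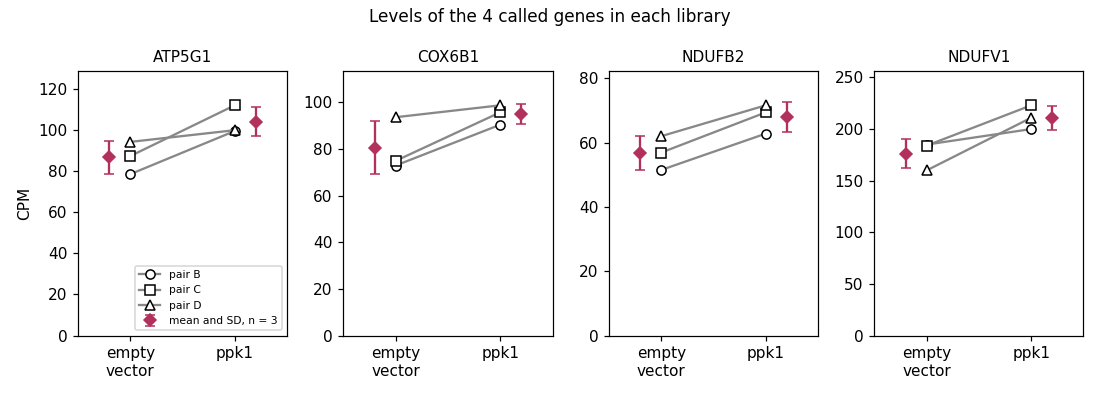
Level (y axis, CPM, from 0) of ATP5G1, COX6B1, NDUFB2 and NDUFV1 in each library, with a line for each matched pair and a diamond with bars for the mean and SD of the 3 libraries of a group. Every line slopes upward, and COX6B1 is the gene in which the groups overlap.

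These calls depended on the pairs. All 4 genes kept a positive difference in all 3 pairs, as did 28 of the 82 tested genes (34.1%, against 22.6% of all genes). For 12 of the 82 every ppk1 library was above every empty vector library (13.0% of all genes), and for 0 every one was below (12.6% of all genes). Without pair C, 0 of the 82 respiratory chain genes were called by edgeR (2.06% of all genes were called in that fit). The 4 adjusted p-values lay between 0.373 for NDUFV1 and 0.639 for COX6B1, and 2 of the 82 had an unadjusted p below 0.05. Without pair D, 15 were called, all higher (9.06% of all genes were called, 3.37% higher): ATP5G1, COX6B1 and NDUFB2 among them and NDUFV1 not, at 0.17 with an adjusted p of 0.116. Without pair B, 5 were called (12.5% of all genes): NDUFV1, NDUFB2, NDUFS8 and ATP5D higher and NDUFS4 lower. In a fit without the pair letter 0 were called (2.40% of all genes were), with adjusted p-values of the 4 between 0.102 and 0.195. There 10 of the 82 had an unadjusted p below 0.05. The share of all genes at an unadjusted p below 0.05 was not counted without pair C or without the pair letter. DESeq2 called 3 (4.36% of all genes) and upper-quartile scaling 3 (6.92%); both left out COX6B1, at adjusted p-values of 0.0631 and 0.0586. Over all alternatives together, adjusted p ranged from 0.00479 to 0.373 for NDUFV1, from 0.00319 to 0.437 for NDUFB2, from 0.000528 to 0.559 for ATP5G1 and from 0.00176 to 0.639 for COX6B1.

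The 250 bases before the start of each of these 4 genes are printed because these are the genes called higher, so that their promoters can be read side by side. The sequences are RefSeq's on GRCh38.p14, all on the plus strand, at chr17:48892537-48892786 for ATP5G1, chr19:35648073-35648322 for COX6B1, chr7:140696458-140696707 for NDUFB2 and chr11:67606686-67606935 for NDUFV1. Capitals mark matches, on either strand, to the cAMP response element TGACGTCA or its shorter form TGACGT, to the ETS-type motif CCGGAAG, and to the CCAAT box.
ATP5G1: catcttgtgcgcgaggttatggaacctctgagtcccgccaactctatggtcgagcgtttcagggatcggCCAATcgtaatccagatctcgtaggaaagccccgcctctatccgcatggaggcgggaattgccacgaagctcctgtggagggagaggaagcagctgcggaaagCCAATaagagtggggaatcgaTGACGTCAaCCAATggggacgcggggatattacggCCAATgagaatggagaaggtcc
COX6B1: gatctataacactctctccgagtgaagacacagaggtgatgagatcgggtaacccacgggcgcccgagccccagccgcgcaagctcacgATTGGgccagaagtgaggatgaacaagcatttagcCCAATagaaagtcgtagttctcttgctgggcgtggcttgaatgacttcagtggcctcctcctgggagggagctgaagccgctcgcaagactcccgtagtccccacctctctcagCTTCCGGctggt
NDUFB2: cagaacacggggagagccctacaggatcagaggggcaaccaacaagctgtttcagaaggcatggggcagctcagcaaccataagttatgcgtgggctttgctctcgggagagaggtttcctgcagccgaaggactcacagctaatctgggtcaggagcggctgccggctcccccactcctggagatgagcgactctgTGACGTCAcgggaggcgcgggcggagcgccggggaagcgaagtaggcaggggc
NDUFV1: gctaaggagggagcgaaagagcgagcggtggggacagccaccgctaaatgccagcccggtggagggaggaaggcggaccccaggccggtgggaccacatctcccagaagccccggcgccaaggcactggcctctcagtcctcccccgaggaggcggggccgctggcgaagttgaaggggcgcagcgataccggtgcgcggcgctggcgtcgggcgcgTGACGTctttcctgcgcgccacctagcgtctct
TGACGT was present in ATP5G1, NDUFB2 and NDUFV1 and not in COX6B1, and the full TGACGTCA, which contains it, in ATP5G1 and NDUFB2. COX6B1 alone of the 4 held CCGGAAG, on the opposite strand, and ATP5G1 and COX6B1 held CCAAT. The motif TGACGT was added to the search after these 4 promoters had been read. It occurred in 7.10% of 35116 RefSeq promoters of this length, and a match is a run of letters, not a measured site of binding.

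Complex I held 37 of the 82 tested genes and 2 of the 4 called (5.41% of its genes, against 9.08% of all genes). Its median fold change of 0.12 was the highest of the 5 complexes in this fit. That order was not kept with the GC and length offsets (0.07, against 0.09 in complex V), without pair C (0.07, against 0.08 in complex III) or without pair D (0.167, against 0.173 in complex V). At an unadjusted p below 0.05, 12 of its 37 genes were higher (32.4%, against 12.2% of all genes). Counted in either direction, 5 of its genes had such a p without the pair letter, 2 without pair C and 20 without pair D. The share of all genes at that p was not counted in those fits. The 7 core subunits, which together carry the flavin and the iron-sulphur clusters of the peripheral arm, had a median of 0.12, and so did the 30 accessory subunits. Among the core, NDUFS7 and NDUFS8, which hold clusters near the ubiquinone site, had fold changes of 0.15 (adjusted p = 0.204) and 0.17 (adjusted p = 0.162), both from edgeR and both with every ppk1 library above every control. NDUFS1, the largest peripheral core subunit, was at 0.01, with a mean of 170 CPM in both groups; its sign turned with RLE scaling (-0.00061) and upper-quartile scaling (-0.015).

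The accessory gene nearest to the threshold was NDUFA2, with a fold change of 0.23 and an adjusted p of 0.0593 in the edgeR fit. NDUFAB1, the mitochondrial acyl carrier protein, which also serves lipoic acid synthesis, had 67.0, 70.7 and 86.0 CPM with the empty vector and 76.4, 84.3 and 83.0 CPM with ppk1. The groups overlapped through the empty vector library D, and its fold change was 0.13 (SE 0.077, adjusted p = 0.302, edgeR). NDUFS4, an accessory subunit needed for a stable NADH-binding module, had 22.3, 24.2 and 34.4 CPM with the empty vector and 25.9, 21.8 and 25.7 CPM with ppk1. Its low fold change of -0.11 (adjusted p = 0.456, edgeR) came with a high empty vector library D: the pair differences were 0.22 in B, -0.15 in C and -0.42 in D.

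Complex I also held a pair of genes whose counts were low beside their partners. The core gene NDUFV2, whose product carries an iron-sulphur cluster next to NDUFV1, had between 11.2 and 13.0 CPM, and the accessory gene NDUFA7 between 4.99 and 6.02 CPM. Per kilobase of annotated transcript this was 13.0 and 8.90 CPM in the empty vector group, where the median of the complex was 70.9. NDUFA9, at 10.6 CPM per kilobase, was as low on that scale, with 42.6 to 53.8 CPM and an annotated transcript length of 4503 bases, the longest of the complex. NDUFV2 shares 27.0% of its transcript with other genes, among them AP005263.1 on its own strand, and NDUFA7 shares 30.8%, among them AC010323.1. Those overlapping genes had 2 and 52 counts over all libraries. The part of overlap in these low levels was not tested.

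In complex II, the succinate dehydrogenase that also works in the TCA cycle, 0 of 4 genes were called by edgeR (9.08% of all genes were). At an unadjusted p below 0.05 there were 0 as well. SDHA, the flavoprotein, had 193, 179 and 170 CPM with the empty vector and 183, 191 and 182 CPM with ppk1, and SDHB, the iron-sulphur subunit, had 81.4, 86.2 and 106 against 92.1, 92.5 and 93.8 CPM. SDHC and SDHD, which anchor the enzyme in the membrane, had fold changes of 0.07 and 0.04. The 4 fold changes lay between 0.04 and 0.07, with standard errors from 0.073 to 0.079, so no gene of complex II differed from 0 beyond its error. DESeq2 also called 0 of them.

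In complex III, which passes electrons from ubiquinol to cytochrome c, 0 of 10 genes were called by edgeR (9.08% of all genes were). At an unadjusted p below 0.05 there were 0 as well, although all 10 fold changes were above 0. DESeq2 also called 0. CYC1, the cytochrome c1 subunit, had 154, 157 and 157 CPM with the empty vector and 162, 180 and 173 CPM with ppk1. The groups did not overlap, yet the fold change of 0.14 (SE 0.073) had an adjusted p of 0.249 in edgeR. UQCRC1, a core subunit, lay in the same way wholly above its controls, with 212 ± 2.96 against 229 ± 10.9 CPM (SD, n = 3).

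The other catalytic subunit of complex III, the Rieske iron-sulphur protein UQCRFS1, had the lowest fold change of the complex at 0.01, with overlapping groups of 80.5 to 90.7 and 81.8 to 93.9 CPM. UQCRH, the hinge protein, had the highest at 0.14 (SE 0.075, adjusted p = 0.246, edgeR), with 164, 173 and 220 CPM against 198, 198 and 214 CPM. It shares 11.2% of its transcript with other genes, among them its near-copy UQCRHL, which was counted at 12.7 to 17.3 CPM, so the split of reads between these is uncertain. UQCRFS1 shares 13.7% of its transcript with UQCRFS1P1, so its count is uncertain too.

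In complex IV, cytochrome c oxidase, 1 of 13 tested genes was called (7.69%, against 9.08% of all genes). Of its 18 genes, 5 were not tested. Besides COX6B1, COX5A, a matrix-side subunit, had a fold change of 0.16 (SE 0.073, adjusted p = 0.162, edgeR), with 161, 166 and 168 CPM against 181, 192 and 181 CPM and no overlap. At the other end, COX7A2L, COX6A1 and NDUFA4 lay just below 0. NDUFA4 had 93.5, 106 and 142 CPM with the empty vector and 112, 107 and 116 CPM with ppk1, a range of controls that encloses every ppk1 value.

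The tissue-specific isoforms of complex IV separated these cells clearly into one form of each subunit. COX4I1 had 189 to 215 CPM over the 6 libraries, while COX4I2, the form associated with lung and low oxygen, had 1 count in 1 library. COX6A1 had 141 to 203 CPM and the heart and muscle form COX6A2 1 count in 1 library. COX7A2 had 96.8 to 141 CPM and the muscle form COX7A1 at most 1 count in a library. COX7B had 77.0 to 117 CPM and COX7B2 0 counts in all 6 libraries. COX8A had 125 to 142 CPM, and COX8C, known from testis, did not exceed 0.22 CPM. COX6B2, the testis form of COX6B, was the one alternative isoform with enough counts for a test, at 0.459 to 1.05 CPM, and its pair differences of 0.38, -1.02 and 0.54 pointed in both directions. COX6B2 shares 28.0% of its transcript with other genes, among them the overlapping AC020922.1. For the other 5 no fold change was computed, since none had more than 9 counts in any library. The same held for ATP5L2 of complex V, the sixth untested gene, at 0.0451 to 0.125 CPM.

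In complex V, 1 of 17 tested genes was called (5.88%, against 9.08% of all genes). All 17 had a positive fold change, from 0.05 for ATP5O to 0.26 for ATP5G1. The 5 genes of the catalytic F1 head had a median of 0.08. ATP5B, the catalytic beta subunit and per kilobase the most abundant of all these mRNAs in the empty vector group (436 CPM per kilobase), had 770, 809 and 827 CPM with the empty vector and 824, 911 and 851 CPM with ppk1, with a fold change of 0.10 (SE 0.076, adjusted p = 0.433, edgeR). The 4 genes of the peripheral stalk, which holds the head still against the ring, had a median of 0.07. ATP5O, at the top of that stalk, had 92.0, 96.1 and 119 CPM against 104, 100 and 113 CPM, with full overlap.

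The 3 subunit c genes had the highest median of the groups of complex V, at 0.17, and all 3 were higher with ppk1 in all 3 pairs. ATP5G3 had 221, 247 and 280 CPM with the empty vector and 263, 288 and 287 CPM with ppk1, a fold change of 0.17 (SE 0.074, adjusted p = 0.148, edgeR), and ATP5G2 had 222, 215 and 235 against 236, 232 and 237 CPM, a fold change of 0.07. The groups overlapped for both. ATP5J2, a membrane subunit, came nearest to the threshold after ATP5G1, with a fold change of 0.21 and an adjusted p of 0.0639 in edgeR. An exon of PTCD1 overlaps it on the same strand, with 3680 counts over all libraries against 32567 for ATP5J2, so the division of reads is uncertain.

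CYCS, cytochrome c itself, had 254, 280 and 373 CPM with the empty vector and 291, 319 and 317 CPM with ppk1. The empty vector library D was above every ppk1 library, and the fold change was 0.05 (SE 0.079, adjusted p = 0.757, edgeR).

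Set side by side, the complexes differed little: the median fold changes were 0.12 in complex I, 0.04 in complex II, 0.10 in complex III, 0.07 in complex IV and 0.10 in complex V. No test of a difference between complexes was made. The pairs differed far more than the complexes. Over the 82 genes, the median difference was 0.18 on the log2 scale in pair B, 0.14 in pair C and -0.05 in pair D, and 80, 77 and 31 genes were higher with ppk1 in those pairs (against 52.0%, 52.9% and 49.9% of all genes tested). The same order of pair D below the others held in each complex, with pair D medians of -0.02 in complex I, -0.10 in II, -0.05 in III, -0.09 in IV and -0.03 in V. In complex IV the median turned to -0.03 without pair B.

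**Figure D3:**
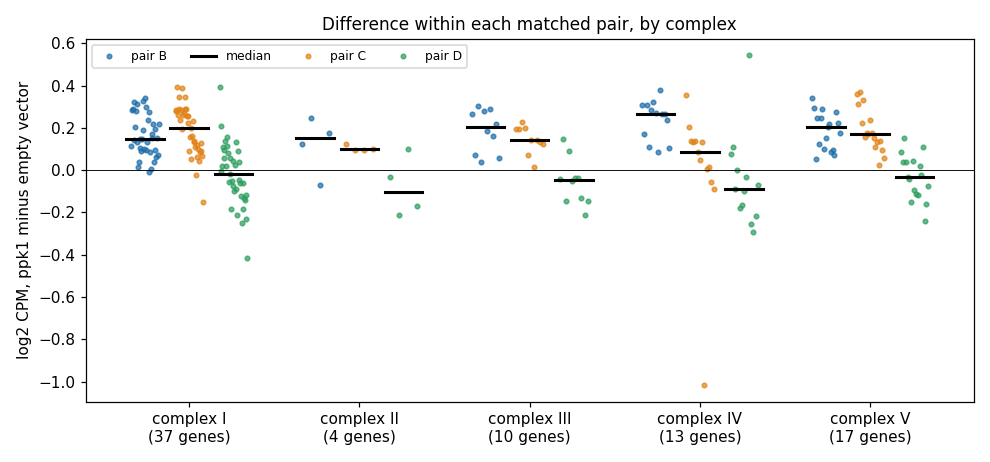
Difference in log2 CPM, ppk1 minus empty vector (y axis), of each tested gene in each matched pair, by complex, with a black bar at the median. Pairs B and C lie mostly above 0 in all 5 complexes and the medians of pair D lie below 0, from -0.10 to -0.02; the 2 most distant points in complex IV are COX6B2.

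GC content and, in pairs B and C, transcript length moved with the pair differences. Over the 82 genes, the difference in pair D had a Spearman correlation of 0.721 with the GC content of the mRNA, against 0.428 over all genes tested. The correlation was 0.45 in pair C and -0.338 in pair B. For transcript length the Spearman correlations over the 82 genes were -0.393 in pair B, -0.284 in C and 0.073 in D. Over all genes tested they were -0.076, -0.055 and -0.031. These describe genes within the same libraries, which are not independent replicates. The 41 genes below the median GC content of 50.0% had a pair D median of -0.12, with 5 higher, and the 41 at or above it a median of 0.04, with 26 higher. Of the 4 called genes, 3 were in the upper group. The elevation of the empty vector library D followed GC content too, with a Spearman correlation of -0.65 over the 82 genes and -0.481 over all genes. When GC content and transcript length entered the model as offsets, 10 of the 82 genes were called, all higher (14.5% of all genes were called in that fit, 7.07% higher), the 4 among them, and the median fold change was 0.07. The part of GC content and transcript length in these differences was otherwise not tested.

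**Figure D4:**
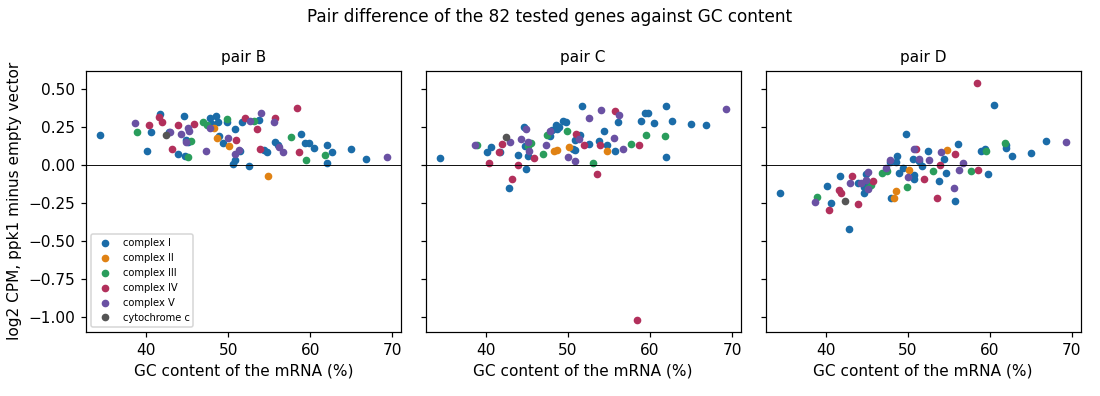
Difference in log2 CPM, ppk1 minus empty vector (y axis), against the GC content of the annotated mRNA in percent (x axis), for the 82 tested genes in pairs B, C and D, coloured by complex. The points climb with GC content in pair D (Spearman 0.721), less so in pair C (0.45), and slope downward in pair B (-0.338).

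The mitochondrially encoded partners of these subunits moved further. All 13 were called higher, where 4.04% of all genes and 4 of 82 nuclear genes were. Fold changes of the 13 ran from 0.28 to 0.62 with a median of 0.45, against a median of 0.10 for the nuclear genes. The groups overlapped only for MT-ND6, whose pair differences were -0.16 in B, 0.18 in C and 0.93 in D. MT-CYB, the cytochrome b of complex III, had 2080, 2560 and 2480 CPM with the empty vector and 3070, 4660 and 3270 CPM with ppk1. It rose by 0.61 (SE 0.086, adjusted p = 1.5e-06, edgeR). MT-ND2 and MT-ND1 of complex I rose by 0.62 and 0.59, and MT-ATP8 and MT-ATP6 of complex V by 0.56 and 0.54. Library C of the ppk1 group had the highest level of MT-CYB, and without pair C 6 of the 13 were called (2.06% of all genes). DESeq2 called 10 of the 13 (4.36% of all genes), MT-ND2 (adjusted p = 0.109) and MT-ND1 (adjusted p = 0.114) not among them. Without the pair letter 9 were called (2.40% of all genes).

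As a ratio within each library, the summed counts of mitochondrially encoded subunits were 3.53, 3.64 and 3.13 times those of the nuclear genes with the empty vector, and 4.05, 5.03 and 3.93 times with ppk1. Every ppk1 library lay above every empty vector library, and this held in each of the 4 complexes with both kinds of subunit. In complex I the ratio was 4.94, 4.99 and 4.27 against 5.60, 7.12 and 5.34, and in complex IV it was 9.91, 9.96 and 8.29 against 10.7, 13.0 and 10.3. The denominator moved too: the 88 nuclear genes together made 8560, 8960 and 10400 CPM with the empty vector and 9590, 10000 and 10100 CPM with ppk1. Their sum was higher with ppk1 in pairs B and C and lower in pair D, with overlapping groups. The empty vector library D had the highest sum and the lowest ratio. How far poly(A) selection captured mitochondrial transcripts in each library was not tested.

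**Figure D5:**
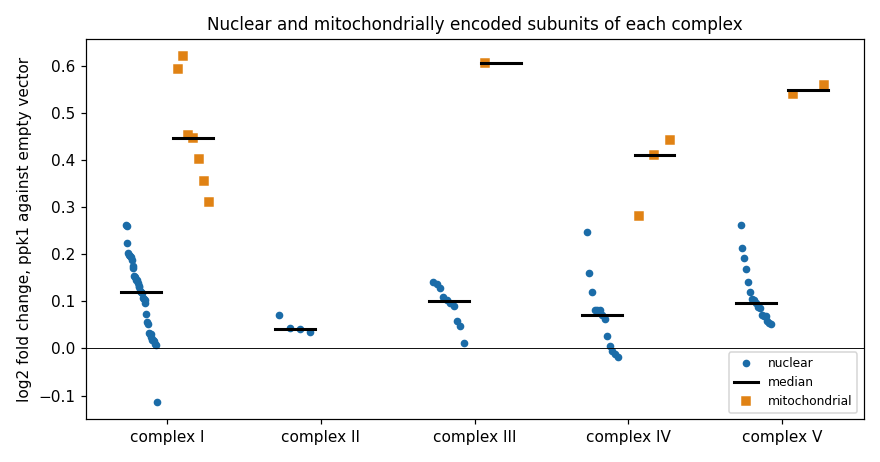
Log2 fold change, ppk1 against empty vector (y axis), of each tested nuclear gene (circles) and each mitochondrially encoded gene (squares) of complexes I to V, with bars at the medians. The mitochondrial genes, from 0.28 to 0.62, lie above all nuclear genes of their own complex, and complex II has none.

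Genes that assemble, feed or regulate the chain were compared from lists chosen by function, also with earlier results of these data known. Of 51 assembly factors, 3 were called (5.88%, against 9.08% of all genes), 2 higher and 1 lower, and their median was 0.06. COA3, an early chaperone of the mitochondrially encoded COX1 protein, rose by 0.30 (adjusted p = 0.00834, edgeR), with 33.5, 35.8 and 38.2 CPM against 38.7, 52.3 and 42.4 CPM. BCS1L, which inserts the Rieske protein into complex III, rose by 0.27 (adjusted p = 0.0159, edgeR), with 73.8, 70.3 and 70.0 CPM against 80.8, 92.0 and 85.7 CPM. SDHAF4, which helps SDHA enter complex II, had 16.9, 13.7 and 16.7 CPM against 14.7, 9.72 and 14.0 CPM and fell by 0.31 (adjusted p = 0.0191, edgeR), with overlapping groups.

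Of 18 enzymes of the TCA cycle and pyruvate dehydrogenase, 1 was called (5.56%, against 9.08% of all genes). IDH3G, a regulatory subunit of the NAD-dependent isocitrate dehydrogenase, rose by 0.26 (adjusted p = 0.0211, edgeR), and the median of the list was 0.09. Of 15 regulators of mitochondrial biogenesis, 2 were called (13.3%, against 9.08% of all genes), both lower (5.04% of all genes were called lower). PPARGC1A, the coactivator PGC-1alpha, had 4.85, 5.17 and 6.61 CPM with the empty vector and 4.48, 3.42 and 4.09 CPM with ppk1, and fell by 0.45 (adjusted p = 0.0135, edgeR). ESRRG, an orphan nuclear receptor that acts with it, had 4.55, 4.88 and 5.02 CPM against 3.86, 4.01 and 2.75 CPM and fell by 0.44 (adjusted p = 0.0232, edgeR). In both genes every ppk1 library lay below every empty vector library, at low levels. All 3 lists lost these calls without the pair letter and without pair C.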

How the data were processed

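RNA from 6 HEK293T libraries (3 per group) was enriched by poly(A) selection and made into directional libraries, per the labels' protocols. The authors deposited 1 table of raw gene counts; bcl2fastq 2.20, Trimmomatic, STAR, HTSeq, edgeR, DESeq, Cufflinks and Cuffdiff are named in the submitters' processing notes, with no role. The genome build, annotation and handling of strand and of reads shared between genes are not given in the sources used here.

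The counts were tested with edgeR 4.0.16 (R 4.3.3): filterByExpr with a minimum count of 10, TMM scaling, the pair letter as a block, the quasi-likelihood test, and Benjamini-Hochberg adjustment over all 19574 genes at 0.05. Pair differences are in log2 CPM with a prior count of 2. The block follows the series' design text; the deviations of matched libraries from the means of their groups correlated across genes at 0.109 (B), 0.135 (C) and 0.0476 (D). Alternatives were no block, DESeq2 1.42.0, RLE and upper-quartile scaling, other count filters, GC and length offsets, each pair left out, and NDUFA4 in complex I.

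Transcript length and GC content are medians over GENCODE 29 basic protein-coding transcripts; the transcripts used by these cells are unknown, so levels per kilobase are approximate. Shared sequence was counted in stretches of 50 bases. Other named genes with shared sequence include COX8A (27.7%), COX6A1 (17.9%), ATP5O (16.1%), SDHD (13.1%), NDUFA9 (13.1%), ATP5G2 (9.0%) and SDHA (8.6%). The split of reads is uncertain for these as well. Promoters came from RefSeq and matched 82 of the 88 genes. The genes and lists were chosen with earlier results of these data known. Named are the called genes, the highest and lowest of each complex, the isoform groups, subunit c, complex II, NDUFA4, NDUFAB1, CYC1 and CYCS, and up to 6 called genes of each other list; NDUFS1, NDUFS7, NDUFS8, NDUFV2, NDUFA2, NDUFA7, NDUFA9, UQCRC1, UQCRHL, COX5A, ATP5B, ATP5J2 and ATP5L2 were added after their values were seen. The design text calls the pairs biological replicates, and whether they came from separate cultures is not stated further. The p-values rest on standard errors that draw on the spread of all genes tested, not on the pairs of a single gene alone.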

Additional observations from a re-analysis of the deposited data

How the results depend on the processing

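Results were recomputed without the replicate block that pairs the libraries, with DESeq2, with 2 other scalings, 2 other filters, GC and length offsets, and without each pair; the cause of a change was not tested. Without the replicate block, 0 of the respiratory chain genes were called, hence 0 in complexes I, IV and V, and 0 assembly factors, 0 TCA enzymes and 0 biogenesis regulators; background calls fell from 1777 to 470 genes. With the GC and length offsets 14.5% of all genes were called. The counts were then 10 of 82 for the respiratory chain, 7 of 37 for complex I and 2 of 17 for complex V. They were 7 of 51 for assembly factors, 4 of 18 for TCA enzymes and 4 of 15 for regulators. DESeq2 called 0 genes of complex IV, 1 assembly factor and 0 regulators (4.36% of all genes were called). Upper-quartile scaling called 0 genes of complex IV (6.92% of all genes). Of all genes, 12.5% were called without pair B, 2.06% without pair C and 9.06% without pair D. Leaving out 1 pair at a time gave 0 to 15 respiratory chain genes, 0 to 9 in complex I, 0 to 2 in III, 0 to 1 in IV, 0 to 3 in V, 0 to 10 assembly factors, 6 to 12 mitochondrially encoded genes, 0 to 1 TCA enzymes and 0 to 3 regulators, and a complex IV median of -0.029 to 0.12. The medians of the other complexes and of all 82 genes stayed above 0 in every alternative, from 0.047 to 0.152 for all 82.

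Over the 37 tested respiratory chain genes and 12 others named, direction turned only in genes uncalled in the reported fit. With the offsets it turned for COX7A2L (0.015), COX6B2 (-0.037), COX8A (-0.027), ATP5G2 (-0.00017), NDUFA4 (0.053), SDHA (-0.0037) and NDUFA7 (-0.058), with upper-quartile scaling for UQCRFS1 (-0.010), NDUFS1 (-0.015) and NDUFA7 (-0.012), with RLE scaling for NDUFS1 (-0.00061) and with DESeq2 for COX6B2 (-0.016). With 1 pair left out the range was -0.29 to 0.020 for NDUFS4, -0.036 to 0.12 for SDHB, -0.044 to 0.069 for UQCRFS1, -0.082 to 0.017 for COX7A2L, -0.011 to 0.097 for ATP5O, -0.14 to 0.069 for COX6A1, -0.23 to 0.47 for COX6B2, -0.029 to 0.14 for COX7A2, -0.023 to 0.19 for COX7B, -0.14 to 0.12 for NDUFA4, -0.0095 to 0.097 for SDHA, -0.061 to 0.15 for SDHD, -0.026 to 0.17 for CYCS, -0.028 to 0.048 for NDUFS1, -0.042 to 0.059 for NDUFV2, -0.070 to 0.10 for NDUFA7 and -0.032 to 0.086 for NDUFA9. Depth limited COX6B2, with as few as 22 counts in a library, and the 6 untested genes.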

Other observations

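The 3 subunit c genes encode the same mature protein, and the share of each in their summed mRNA was compared. Per kilobase of annotated transcript, ATP5G1 made up 21.3%, 22.5% and 22.0% of their summed level in the empty vector libraries B, C and D, and 23.4%, 24.9% and 22.6% in the ppk1 libraries. Every ppk1 library was above the empty vector library of its pair, and the lowest ppk1 share, in library D, was barely above the highest empty vector share. ATP5G2 had 40.1%, 36.8% and 36.3% against 36.9%, 34.2% and 35.7%, and ATP5G3 38.5%, 40.7% and 41.7% against 39.6%, 40.9% and 41.6%. These groups overlapped. No test was made of the shares.

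Over the 82 respiratory chain promoters of 250 bases found in RefSeq, 18 held CCGGAAG, the core of sites for ETS factors such as GABP, which is 22.0%, against 8.52% of all 35116 promoters. TGACGT was in 13 (15.9%, against 7.10%), and TGACGTCA, which contains it, in 4 (4.88%, against 1.65%). Promoters of the called genes made up 3 of those 13 and 2 of those 4. TGACGT was added to the search after the promoters of the called genes had been read, so these shares are no independent observation. CCAAT was in 28 (34.1%, against 32.0%). The counts are over both strands. They describe letters in these windows, and no binding was measured.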
